A study of Caenorhabditis elegans with 6 samples.

Results

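Peptide and amino acid transporters carry the products of protein digestion across cell membranes. This account covers 10 such genes of the nematode Caenorhabditis elegans, the peptide transporter gene pept-1 and the amino acid transporter genes aat-1 to aat-9. They were chosen by gene symbol, with sequence names translated to symbols through RefSeq locus tags of assembly WBcel235. All 10 had a row in the count table, out of 14605 rows that carry worm gene names. The series measured messenger RNA in first-stage (L1) larvae, with 3 libraries from intestinal cells and 3 from other cells that divide at this stage, called non-intestinal here. Each library came from a pool of 500 cells with a 4N DNA content, and the groups are given as biological replicates. Every animal, in both groups, carried the transgene ccyIS27, in which the elt-2 promoter drives mCherry fused to PH and, after P2A, H2B joined to mCherry. The elt-2 promoter is active in the intestine, so the reporter marks intestinal cells. How the cells were separated is not given in the sources used here. The comparison asks which transcripts differ between the intestinal cells and the other cells.

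PEPT-1 is a proton-coupled carrier in the apical membrane of the worm intestine that takes up di- and tripeptides from the gut lumen, and it is the main route by which dietary peptides enter the animal. The sodium/proton exchanger NHX-2 sits in the same membrane and removes the protons that come in with the peptides. The AAT proteins belong to the light chains of heteromeric amino acid transporters (SLC7 type). In animals these light chains exchange one amino acid for another, and many of them reach the cell surface only when joined by a disulphide bond to a single-span heavy chain, encoded in the worm by atgp-1 and atgp-2. In C. elegans AAT-1, AAT-2 and AAT-3 are the members most like such heavy-chain partners.

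The libraries differed in depth, with 1222704 to 21040813 worm gene counts, and replicate 3 was the shallowest library of both groups. The limit that 0 counts leave, taken as 3 counts, is 2.40 CPM (counts scaled by library size) in intestinal replicate 3 and 1.63 CPM in non-intestinal replicate 3, and 0.136 to 0.478 CPM in the other 4 libraries. The gene elt-2, which encodes the GATA factor that specifies and maintains the intestine, had 42.6, 38.1 and 59.3 CPM in intestinal replicates 1, 2 and 3, against 0.159, 1.73 and 0 CPM in the non-intestinal replicates. Of 8 intestinal marker genes 7 could be tested and 7 were called higher in intestinal cells (edgeR, adjusted p under 0.05). Among all tested genes 13.5% were called higher and 7.64% lower. Some markers, elt-7 and pgp-1 among them, passed the filter on low counts only through the intestinal libraries. The non-intestinal cells are a mixture, in which summed germline markers reached 574 to 1036 CPM, against 13.9 to 66.4 CPM in intestinal libraries (5 of 5 tested called lower in intestinal cells). Of these germline markers, glp-1 and oma-2 passed the filter only through the non-intestinal libraries. Summed body wall muscle markers were at 780 to 2167 CPM in the intestinal pools and 1327 to 3779 CPM in the others, with 0 of 5 tested called. The muscle gene myo-3, the germline gene nos-2 and the seam gene nhr-73 were at 0 counts in each intestinal library, and no non-intestinal library held over 5 counts of them either. Summed pharynx markers were at 41.7 to 722 CPM in the intestinal pools and 821 to 1095 CPM in the others, with 0 of 5 tested called. Summed neuronal markers were at 252 to 799 CPM in the intestinal pools and 365 to 428 CPM in the others (1 of 7 tested called higher in intestinal cells). Epidermal and seam markers summed to 42.5 to 146 CPM in the intestinal pools and 409 to 445 CPM in the others, and of 5 tested 1 was called lower and 1 higher in intestinal cells. Excretory canal markers summed to 9.62 to 33.8 CPM in the intestinal pools and 11.4 to 66.5 CPM in the others, with 0 of 3 tested called. What part these other cells have in the values of the transporters was not tested.

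Of the whole count table, 9203 genes entered the quasi-likelihood test of edgeR, with calls made at an adjusted p under 0.05. Of all tested genes 13.5% were called higher and 7.64% lower in intestinal cells. Of the 10 transporter genes 9 could be tested. Those called higher were pept-1, aat-4, aat-6 and aat-7, and 0 were called lower, also 0 lower at an unadjusted p under 0.05 and 0 lower by DESeq2. The last 3 of the called genes passed the filter on low counts only through the intestinal libraries, so their share among those tested is not a measure of the family. The other 5 tested genes, aat-1, aat-2, aat-3, aat-5 and aat-9, were detected in both cell groups and were not called. The remaining gene, aat-8, had almost no counts. Over all tested genes the median log2 fold change was −0.34. In pooled cells, fewer cells of a type and less RNA per cell cannot be told apart.

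**Figure D1:**
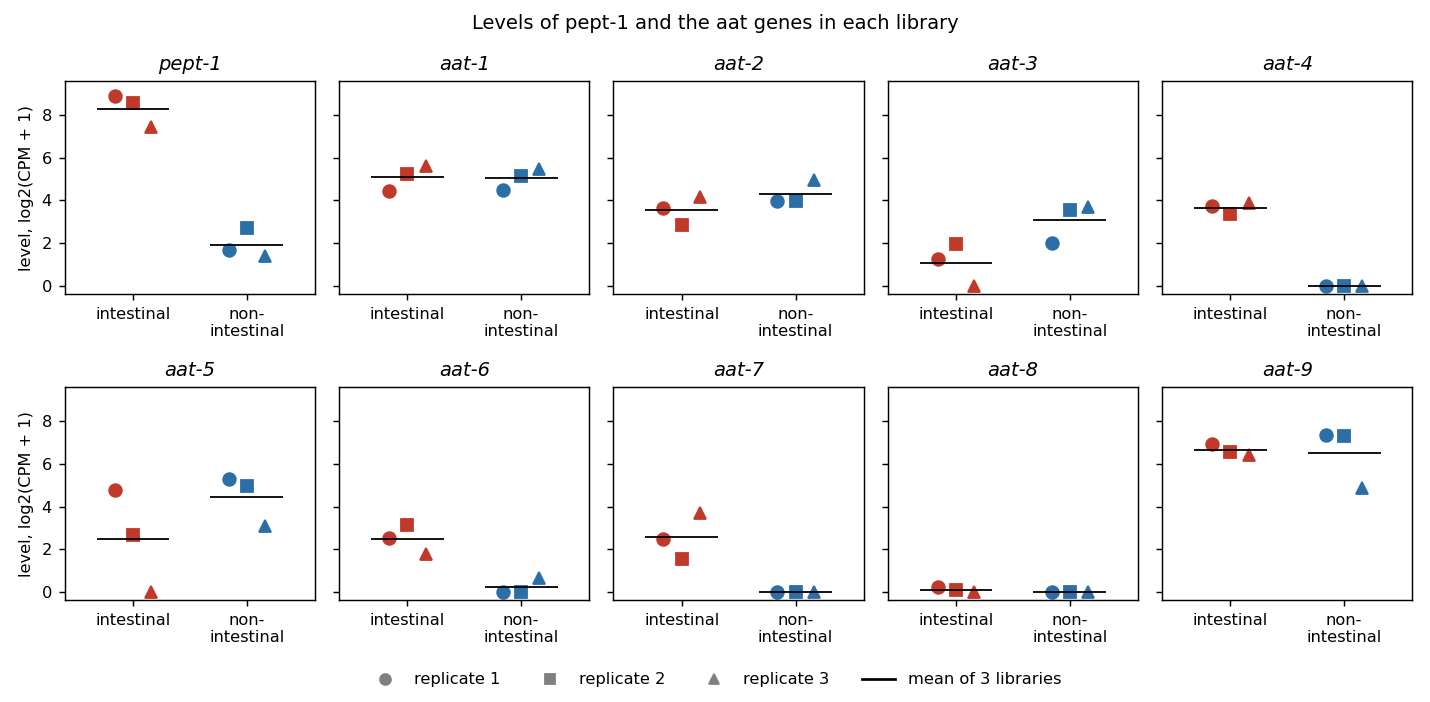
Level of each of the 10 genes in each library as log2(CPM + 1), with intestinal libraries on the left and non-intestinal libraries on the right of each panel, a symbol for each replicate and a line at the mean of the 3 log values. pept-1, aat-4, aat-6 and aat-7 lie higher in the 3 intestinal libraries than in any non-intestinal library, and aat-8 is near 0 throughout. For aat-4, aat-6 and aat-7 this order follows from the filter on low counts, which they passed only through the intestinal libraries. All intestinal libraries were the higher ones for 21.9% of all tested genes, a share to set beside pept-1 alone.

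The peptide transporter transcript was far more abundant in intestinal than in non-intestinal cells. pept-1 (K04E7.2, WBGene00003877) lies on the plus strand of chromosome X from 6456872 to 6461767 (WBcel235), with 1 annotated transcript of 14 exons and a 3′ untranslated region of 126 bases. It had 5707, 6591 and 213 counts in intestinal replicates 1, 2 and 3, against 14, 120 and 3 counts in the non-intestinal replicates. Scaled to library size this was 474, 380 and 171 CPM in intestinal libraries, against 2.23, 5.45 and 1.63 CPM in non-intestinal libraries. The lowest intestinal library stood far above the highest non-intestinal one, and the groups did not overlap. A lack of overlap with all intestinal libraries higher was seen for 21.9% of all tested genes. The intestinal mean was 342 ± 155 CPM and the non-intestinal mean 3.10 ± 2.06 CPM (SD, n = 3 each). The log2 fold change was 6.68 ± 0.76 (SE), with a 95% interval from 5.02 to 8.35 and an edgeR adjusted p of 0.00048. As a fold this is 103, and 97.0% of tested genes had a lower fold change. Within replicate numbers the log2 ratio of intestinal to non-intestinal CPM was 7.73, 6.12 and 6.71.

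pept-1 stayed called whichever of the 6 libraries was left out. The fold was 206 without non-intestinal replicate 2, the non-intestinal library with the most pept-1, and between 84.7 and 129 without any of the others. Summed intestinal markers in non-intestinal replicates 1, 2 and 3 were at 54.7, 218 and 203 CPM. In non-intestinal replicate 2 the level of pept-1 was 1.44% of that in the intestinal library with the same number, while the 8 intestinal markers lay between 0.303% and 6.71%, with a median of 2.44%. In replicate 1 pept-1 stood at 0.470%, beside marker values from 0 to 1.92% with a median of 0.370%. In replicate 3 it stood at 0.956%, beside 0 to 35.3% with a median of 0.257%, where 4 of 8 markers had 0 counts. The value of pept-1 was above that of 5, 2 and 5 of the 8 markers in replicates 1, 2 and 3. It lay inside the marker range each time, but the top of that range was always ifc-2. A range this wide takes in most low values, so lying inside it says little. The part of intestinal cells or RNA in the non-intestinal pools was not tested.

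**Figure D2:**
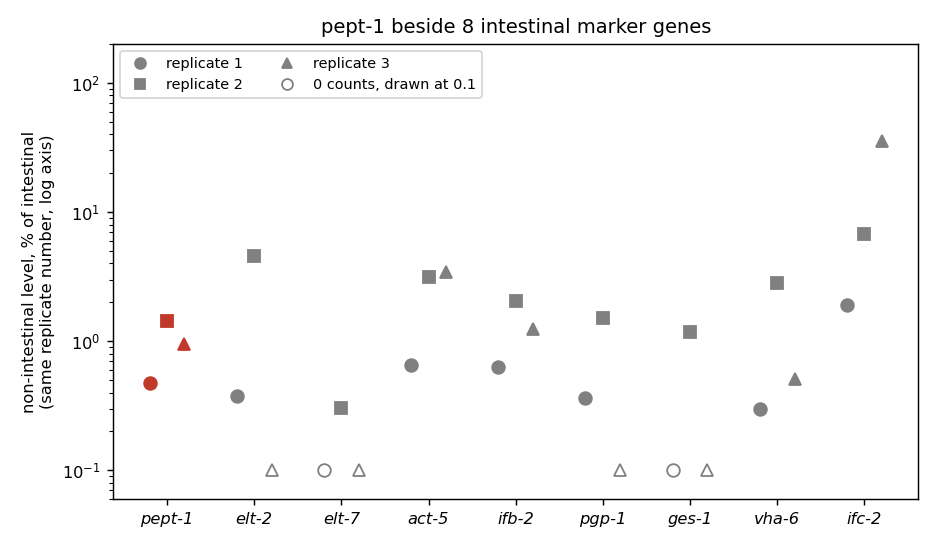
Level in the non-intestinal library as a percentage of the level in the intestinal library with the same replicate number (log axis), for pept-1 in red and 8 intestinal marker genes in grey. Open symbols mark 0 counts and are drawn at 0.1. pept-1 lies at 0.470%, 1.44% and 0.956% in replicates 1, 2 and 3, with 5, 2 and 5 of the 8 markers below it.

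Of the amino acid transporter family, 3 genes were seen almost only in intestinal libraries. aat-4 (T13A10.10, WBGene00000005) is on the minus strand of chromosome IV from 6272529 to 6275721, with 12 exons in its coding transcript. It had 150, 161 and 17 counts in intestinal replicates 1, 2 and 3, against 0, 0 and 0 counts in the non-intestinal replicates. The levels were 12.5, 9.28 and 13.6 CPM in intestinal libraries, against 0 CPM in each non-intestinal library. The mean was 11.8 ± 2.25 CPM in intestinal libraries (SD, n = 3), with 0 counts in the non-intestinal group. Set against 3 counts per non-intestinal library, aat-4 was at least 15.7-fold higher in intestinal cells (adjusted p = 0.0052 by edgeR). aat-4 stayed called whichever of the 6 libraries was left out, with an edgeR adjusted p of up to 0.023. The bound was 48.9-fold without the shallow non-intestinal replicate 3, whose floor is the highest of its group, and was 14.6 to 17.7-fold without any of the others.

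aat-7 (F54D12.3, WBGene00000008) is on the plus strand of chromosome II from 1386870 to 1391639, with 9 exons. It had 54, 33 and 15 counts in intestinal replicates 1, 2 and 3, against 0 counts in each non-intestinal library. These counts are 4.49, 1.90 and 12.02 CPM in intestinal libraries, against 0 CPM in the 3 non-intestinal libraries, so that the shallow intestinal replicate 3 carried the highest level. The mean was 6.14 ± 5.26 CPM in intestinal libraries (SD, n = 3). It was at least 8.20-fold higher in intestinal cells (adjusted p = 0.018 by edgeR). The call was lost without non-intestinal replicate 2 (adjusted p = 0.060 by edgeR), and without intestinal replicate 1 the gene did not pass the filter. The bound was 4.40-fold without intestinal replicate 3 and 27.3-fold without non-intestinal replicate 3.

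aat-6 (T11F9.4, WBGene00000007) encodes a transporter of the luminal membrane of the intestine whose upkeep at the membrane depends on the scaffold protein NRFL-1. It lies on the minus strand of chromosome V from 11466842 to 11470663 and has 2 transcripts with 7 and 8 exons. It had 58, 136 and 3 counts in intestinal replicates 1, 2 and 3, against 0, 0 and 1 counts in the non-intestinal replicates. As CPM this was 4.82, 7.84 and 2.40 in intestinal libraries, against 0, 0 and 0.544 in non-intestinal libraries. The 3 counts in intestinal replicate 3 are at the floor of that library. aat-6 passed the filter on low counts only through the intestinal libraries. The lack of overlap between the groups follows from that filter and is not a separate result. The intestinal mean was 5.02 ± 2.72 CPM and the non-intestinal mean 0.181 ± 0.314 CPM (SD, n = 3 each). The ratio of summed counts per summed library size was 194, with an exact 95% interval from 34.4 to 7688 that covers counting error only and rests on 1 non-intestinal count. This ratio was 60.0 without non-intestinal replicate 2, 142 to 229 without intestinal replicate 1, 2 or 3 or non-intestinal replicate 1, and could not be formed without non-intestinal replicate 3, which held the count.

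The call of aat-6 was at the edge of the threshold (adjusted p = 0.046 by edgeR). With the replicate number as a block the adjusted p was 0.060, with library totals alone 0.055 and without a filter 0.056, while RLE scaling gave 0.038 and DESeq2 gave 0.0023. Of the 6 fits that left out 1 library only that without non-intestinal replicate 3 called it. There aat-6 had 0 non-intestinal counts, was at least 19.4-fold higher in intestinal cells and had an edgeR adjusted p of 0.015. In the other 5 the adjusted p was 0.056 to 0.14.

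Taken as a sum, aat-4, aat-6 and aat-7 had 262, 330 and 35 counts in intestinal replicates 1, 2 and 3, against 0, 0 and 1 counts in the non-intestinal replicates. This was 21.8, 19.0 and 28.0 CPM in intestinal libraries. The genes were put together after their values were seen, so the sum is a description. They lie on different chromosomes. In the same libraries aat-8 (F28F9.4, WBGene00000009, chromosome IV from 3862033 to 3865044, minus strand) had 2, 1 and 0 counts in intestinal replicates, against 0, 0 and 0 in non-intestinal replicates. Both groups are under the floor of 3 counts per library, and a difference in aat-8 was not detectable at this depth.

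**Figure D3:**
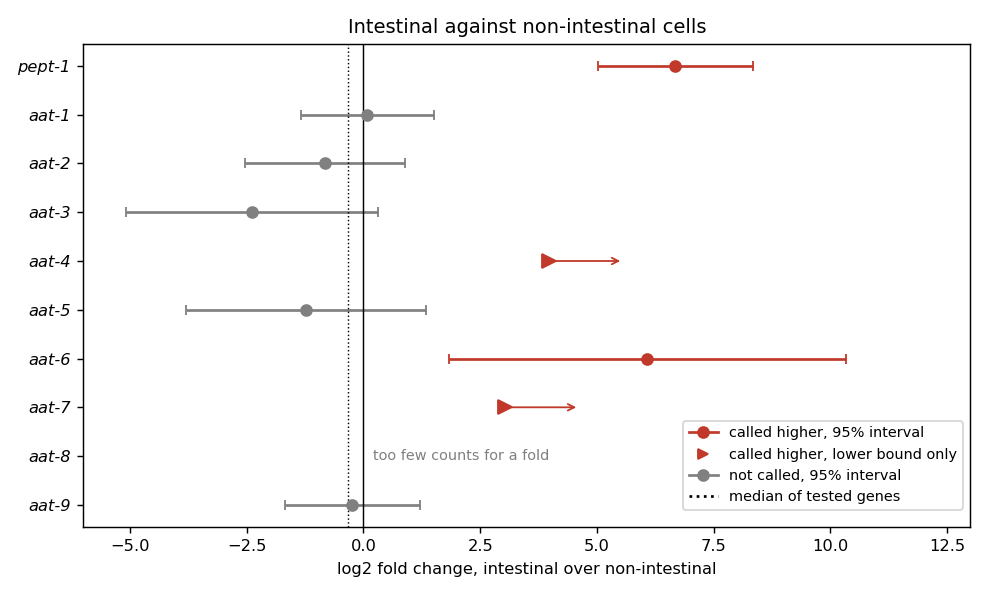
Log2 fold change of each gene, intestinal over non-intestinal, with 95% intervals from the edgeR fit as bars, lower bounds against 3 counts per library as triangles with arrows, and a dotted line at the median of all tested genes (−0.34). pept-1, aat-4, aat-6 and aat-7 lie to the right of 0, and the 5 genes in grey have intervals that include 0. The fitted value of aat-6 rests on 1 non-intestinal count.

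The members most like heavy-chain partners, aat-1, aat-2 and aat-3, were found in both groups. aat-1 (F27C8.1, WBGene00000002, chromosome IV from 9599178 to 9601695, minus strand, 8 exons) encodes a light chain that exchanges neutral amino acids together with ATGP-2 when both are made in frog oocytes. It had 245, 638 and 60 counts in intestinal replicates 1, 2 and 3, against 136, 753 and 80 counts in the non-intestinal replicates. The levels were 20.4, 36.8 and 48.1 CPM in intestinal libraries, against 21.7, 34.2 and 43.5 CPM in non-intestinal libraries. Libraries with the same replicate number were almost level, with log2 ratios of −0.09, 0.10 and 0.14. The fitted log2 fold change was 0.08 ± 0.65 (SE; adjusted p = 0.95 by edgeR), with a 95% interval from −1.35 to 1.503. The interval leaves room for a change of either sign, and the sign turned under library totals alone and without intestinal replicate 3.

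aat-2 (F07C3.7, WBGene00000003, chromosome V from 9244402 to 9246360, minus strand) is the most compact member, with 4 exons. It had 136, 109 and 21 counts, or 11.3, 6.28 and 16.8 CPM, in intestinal replicates 1, 2 and 3, against 93, 325 and 56 counts, or 14.8, 14.8 and 30.4 CPM, in the non-intestinal replicates. The intestinal library was the lower one in each of the 3 replicates, but the groups overlapped. The log2 fold change was −0.82 ± 0.78 (SE; adjusted p = 0.49 by edgeR), with a 95% interval from −2.53 to 0.89. Without non-intestinal replicate 3 it was −0.09.

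aat-3 (F52H2.2, WBGene00000004) spans 2552260 to 2557736 on the plus strand of chromosome X, with transcripts of 11 and 12 exons. It had 17, 50 and 0 counts in intestinal replicates 1, 2 and 3, against 19, 233 and 22 counts in the non-intestinal replicates. In CPM the intestinal libraries held 1.41, 2.88 and 0, against 3.03, 10.6 and 11.96 in the non-intestinal libraries. It was the one gene of the 10 with every intestinal library below every non-intestinal one, a pattern seen for 23.5% of all tested genes, though by a narrow margin (2.88 against 3.03 CPM). The log2 fold change was −2.39 ± 1.23 (SE), with a 95% interval from −5.10 to 0.32 and an edgeR adjusted p of 0.19. Over the 14 alternatives the adjusted p was 0.081 to 0.39, and the log2 fold change was −3.19 without intestinal replicate 2.

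Both heavy chains had log2 fold changes below 0, as aat-2 and aat-3 did and aat-1 did not. The other uncalled members, aat-5 (−1.23) and aat-9 (−0.24), were below 0 as well. Over all tested genes the median was −0.34, so a value below 0 is not particular to these genes. The heavy chains too missed the threshold. atgp-1 (F26D10.9) had 19.1, 38.4 and 5.61 CPM in intestinal replicates 1, 2 and 3, against 39.5, 53.7 and 71.8 CPM in the non-intestinal replicates. Each intestinal library was below each non-intestinal one, as for 23.5% of all tested genes. The log2 fold change of atgp-1 was −1.36 ± 0.75 (SE), with an edgeR adjusted p of 0.22. It was −2.07 without intestinal replicate 2. atgp-2 (C38C6.2) had 22.5, 15.7 and 0 CPM in intestinal libraries, against 62.8, 49.0 and 16.9 CPM in non-intestinal libraries, with overlap between the groups. Its log2 fold change was −1.71 ± 1.06 (SE; adjusted p = 0.28 by edgeR), or −2.32 without intestinal replicate 1. Summed over both, the heavy chains were at 33.8 ± 25.2 CPM on the intestinal side and 97.9 ± 8.03 CPM on the non-intestinal side (SD, n = 3 each). The sum of aat-1, aat-2 and aat-3 was 48.0 ± 16.01 CPM on the intestinal side and 61.7 ± 23.3 CPM on the non-intestinal side (SD, n = 3 each). The lowest heavy chain level was in intestinal replicate 3, with 7 counts of atgp-1 and 0 of atgp-2, whose floor is 2.40 CPM.

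The last genes of the family were also found in both groups. aat-5 (C55C2.5, WBGene00000006, chromosome I from 2571740 to 2576020, minus strand, 10 exons) had 314, 93 and 0 counts in intestinal replicates 1, 2 and 3, against 242, 658 and 14 counts in the non-intestinal replicates. The levels were 26.1, 5.36 and 0 CPM in intestinal libraries, against 38.6, 29.9 and 7.61 CPM in non-intestinal libraries. The intestinal libraries were spread widely, and intestinal replicate 1 reached into the non-intestinal range. The log2 fold change was −1.23 ± 1.17 (SE; adjusted p = 0.49 by edgeR), with a 95% interval from −3.81 to 1.35. It was −2.999 without intestinal replicate 1 and between −1.47 and −0.68 without any of the others.

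aat-9 (Y53H1C.1, WBGene00000010) encodes a transporter of aromatic amino acids that works without a heavy chain in frog oocytes. It is the longest member, from 11388682 to 11396662 on the minus strand of chromosome I, with 12 exons and a 3′ untranslated region of up to 459 bases. It had 1474, 1613 and 104 counts in intestinal replicates 1, 2 and 3, against 1030, 3517 and 52 counts in the non-intestinal replicates. The levels were 123, 92.9 and 83.3 CPM in intestinal libraries, against 164, 160 and 28.3 CPM in non-intestinal libraries. The intestinal libraries lay inside the range of the non-intestinal ones, and non-intestinal replicate 3 was the low library of its group. The intestinal mean was 99.6 ± 20.4 CPM and the non-intestinal mean 117 ± 77.2 CPM (SD, n = 3 each). The log2 fold change was −0.24 ± 0.66 (SE; adjusted p = 0.82 by edgeR), with a 95% interval from −1.69 to 1.21, and its sign turned in 3 alternatives. The last exon of aat-9 shares 70 bases of its 3′ untranslated region with png-1, a protein-coding gene on the other strand. Counting by strand is not stated, so reads there cannot be told apart. png-1 itself averaged 16.8 ± 7.70 CPM on the intestinal side and 12.1 ± 2.34 CPM on the non-intestinal side (SD, n = 3 each), and the log2 ratio from the fit was 0.45 (adjusted p = 0.705 by edgeR).

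Over the whole aat family the summed level overlapped between the groups, and a difference in it was not tested. It was 204, 163 and 176 CPM in intestinal replicates 1, 2 and 3, against 242, 249 and 122 CPM in the non-intestinal replicates. The intestinal mean was 181 ± 20.6 CPM and the non-intestinal mean 205 ± 71.4 CPM (SD, n = 3 each), a difference within the spread of the non-intestinal libraries. Of these means aat-9 made up the largest part, at 99.6 and 117 CPM in that order. Together aat-4, aat-6 and aat-7 averaged 22.9 and 0.181 CPM. The family sum therefore mostly follows aat-9 and does not show the difference in those 3 genes.

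The other genes of peptide and amino acid handling were followed in 8 lists by role, holding 38 genes, of which 34 were in the table and 21 could be tested. Called higher in intestinal cells were 4, and 0 were called lower by edgeR, with 1 lower at an unadjusted p under 0.05 and 1 lower by DESeq2. Over all tested genes 13.5% were called higher and 7.64% lower. Of the 4, nhx-2 and slc-36.2 passed the filter on low counts only through the intestinal libraries. The count is therefore not a measure of the lists. With the replicate number as a block, edgeR called 5 higher and 1 lower, with app-1 and snf-3 gained. Of the related peptide transporters, pept-2 had at most 9 counts in a library and was not tested. pept-3 had 1, 66 and 0 counts in intestinal replicates 1, 2 and 3, against 4, 122 and 3 counts in the non-intestinal replicates, and the log2 ratio from the fit was −0.88 (adjusted p = 0.72 by edgeR). The listed genes glt-7, snf-4, snf-5 and snf-10 were not analysed here.

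nhx-2 (B0495.4), the proton exchanger that works beside PEPT-1, had 593, 729 and 25 counts in intestinal replicates 1, 2 and 3, against 2, 1 and 0 counts in the non-intestinal replicates. This was 49.3, 42.0 and 20.0 CPM in intestinal libraries, against 0.319, 0.0454 and 0 CPM in non-intestinal libraries. The ratio of summed counts per summed library size was 441, with an exact 95% interval from 151 to 2143 for counting error only (adjusted p = 0.0012 by edgeR). With 1 library left out this ratio was 1077 without non-intestinal replicate 1, 205 without non-intestinal replicate 2 and between 415 and 480 without any of the others, and nhx-2 was called in each of the 6 fits.

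slc-36.2 (T27A1.5), of the SLC36 family of proton-coupled amino acid transporters, had 3151, 2307 and 65 counts in intestinal replicates 1, 2 and 3, against 3, 49 and 0 counts in the non-intestinal replicates. The scaled level came to 149 ± 106 CPM on the intestinal side and 0.902 ± 1.17 CPM on the non-intestinal side (SD, n = 3 each), and the log2 ratio from the fit was 7.02 ± 1.09 (SE; adjusted p = 0.0017 by edgeR). slc-36.2 stayed called whichever of the 6 libraries was left out. The fold was 130 with all libraries, 84.1 without intestinal replicate 1 and 109 to 169 without intestinal replicate 2 or 3 or non-intestinal replicate 1 or 3. Without non-intestinal replicate 2 only 3 non-intestinal counts remained, and the ratio of summed counts per summed library size was 560 (exact 95% interval from 192 to 2718).

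In the same family slc-36.1 averaged 52.2 ± 6.49 CPM on the intestinal side and 25.9 ± 9.86 CPM on the non-intestinal side (SD, n = 3 each) without overlap, at an edgeR adjusted p of 0.27. Such a lack of overlap, with intestinal libraries higher, was seen for 21.9% of all tested genes. slc-36.4 and slc-36.5 were also not called (adjusted p = 0.70 and 0.23 by edgeR), slc-36.3 was not tested, and unc-47, the vesicular GABA transporter of neurons, had 0 counts in each intestinal library and 0, 23 and 0 in the non-intestinal replicates.

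Of the cytosolic peptidases that cut peptides to amino acids, 2 of 6 tested were called higher in intestinal cells. The share called higher among all tested genes was 13.5%. pes-9 (R11H6.1) had 93.8, 298 and 88.1 CPM in intestinal replicates 1, 2 and 3, against 13.9, 36.9 and 11.4 CPM in the non-intestinal replicates, and the fitted log2 ratio was 2.93 ± 0.74 (SE; adjusted p = 0.018 by edgeR). Its fold was 7.65 with all libraries, 4.44 without intestinal replicate 2, where the call was lost (adjusted p = 0.086 by edgeR), and 15.3 without non-intestinal replicate 2. The aminopeptidase gene lap-1 (ZK353.6) had 201, 278 and 103 CPM in intestinal libraries, against 44.6, 56.4 and 21.7 CPM in non-intestinal libraries, and the fitted log2 ratio was 2.24 ± 0.61 (SE; adjusted p = 0.024 by edgeR). The call of lap-1 was lost without intestinal replicate 1 or 2 (adjusted p = 0.072 and 0.089 by edgeR). The log2 fold changes of lap-2, app-1, tpp-2 and pam-1 were 1.03, 1.19, 0.10 and −0.23, not called (edgeR adjusted p from 0.22 to 0.93), and dnpp-1 was not tested. app-1, which encodes aminopeptidase P, was called with the replicate number as a block (adjusted p = 0.047 by edgeR).

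Carriers of other amino acids and transmitters were not called. The lysosomal exporters laat-1, for lysine and arginine, and ctns-1, for cystine, were at fitted log2 ratios of 1.20 and −0.76 (adjusted p = 0.33 and 0.69 by edgeR). Of the glutamate transporters only glt-1 could be tested, and the log2 ratio from the fit was −1.58 (adjusted p = 0.26 by edgeR). That of glt-1 was −3.05 without intestinal replicate 2 (adjusted p = 0.061 by edgeR) and −0.97 without non-intestinal replicate 3. The genes glt-3, glt-4, glt-5 and glt-6 had at most 21 counts in a library. Of 9 SLC6 transporter genes with a row, 4 were tested and 0 called by edgeR. The betaine transporter gene snf-3, named here after its values were seen, was the 1 gene lower at an unadjusted p under 0.05, with 14.5 ± 15.5 CPM on the intestinal side and 90.0 ± 62.8 CPM on the non-intestinal side (SD, n = 3 each). Its log2 fold change was −2.59 ± 0.99 (SE; adjusted p = 0.089 by edgeR). With the replicate number as a block snf-3 was called lower (adjusted p = 0.011 by edgeR), as it was by DESeq2 (adjusted p = 0.020). It was also called lower with library totals alone (adjusted p = 0.042 by edgeR), with no filter (0.0079), without intestinal replicate 2 (0.037, log2 fold change −3.79) and without non-intestinal replicate 3 (0.031).

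**Figure D4:**
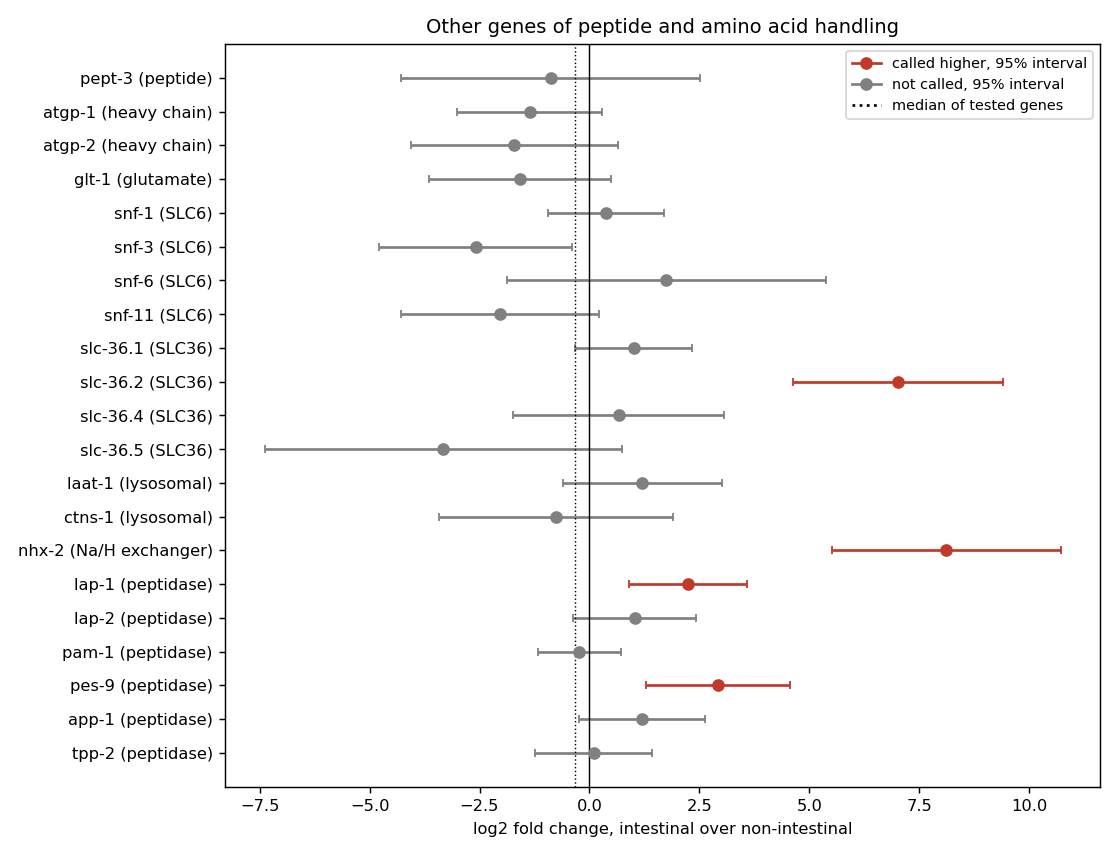
Log2 fold change, intestinal over non-intestinal, of the 21 tested genes of the 8 lists by role, with 95% intervals from the edgeR fit and a dotted line at the median of all tested genes (−0.34). slc-36.2, nhx-2, lap-1 and pes-9 (red) were called higher, and the fitted value of nhx-2 rests on 3 non-intestinal counts.

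The tested genes whose profile over the 6 libraries lay nearest to that of pept-1 were sgk-1, acox-1.2, clec-83, C17H12.8 and ctsa-4.1. Likeness was the distance between log2 CPM values centred on each gene's mean, which was 0.53, 0.64, 0.64, 0.69 and 0.72 for these genes in that order, beside a median of 9.02 over all tested genes. The profile is set mostly by the difference between the groups. Among the 5, clec-83, which encodes a C-type lectin, had 2182, 1343 and 598 CPM in intestinal replicates 1, 2 and 3, against 14.7, 21.9 and 8.15 CPM in the non-intestinal replicates. As for pept-1, intestinal replicate 1 was the highest library and non-intestinal replicate 2 the highest of its group. The gene was chosen for a like profile over these libraries, so the shared order is not a separate result.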

How the data were processed

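Libraries were made with an adapted CEL-seq protocol, which barcodes samples at reverse transcription, amplifies by in vitro transcription and reads 3′ ends, per the labels' protocols. The authors deposited raw counts per row and library, without normalization. STARsolo 2.7.10a and the build WBcel235 are named in the submitters' processing notes. Annotation, strand use, molecular identifiers and filters are not given in the sources used here, so counts may include amplification copies. The exact intervals and the floors take each count as a separate molecule, and cover counting error only if that holds. The 95% intervals from the edgeR fit also take in the spread between libraries. Of 15472 rows, 825 named RIT, 41 spike-in rows and 1 reporter row were left out of totals and tests (0.376% to 0.782% of a library's counts for RIT rows, at most 0.0142% for spike-ins). RefSeq gave symbols to 14387 of the 14605 gene rows. Gene positions are from Ensembl release 115 for the same build. No sequences are shown.

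The quasi-likelihood test of edgeR 4.0.16 (R 4.3.3) was run on all 6 libraries with TMM scaling, robust estimation and group as the only term, after filterByExpr with a minimum count of 10 and total of 15. P-values were Benjamini-Hochberg adjusted over 9203 genes. The standard error is the log2 fold change over the root of its F statistic. A group with 0 counts in every library was set to 3 counts per library for a lower bound, and a group with 1 to 3 counts in all got a ratio of sums with an exact binomial (Clopper-Pearson) interval. The direction of the fitted changes was checked on counts simulated with the dispersions of this same fit, with 200 genes changed by a log2 of 3. That was not a check of the calls of genes near 0 counts. Alternatives included DESeq2 1.42.0, other scalings and filters, a replicate block and leaving out each library.

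The members and gene lists were chosen with earlier results of these data known. All 10 members are named, as are genes of lists with 7 or fewer members in the table, called genes of longer lists, elt-2 and the 5 tested genes nearest to pept-1 (log2 CPM, prior count 3). Within-group deviations correlated at 0.278, 0.157 and 0.279 between groups for replicates 1, 2 and 3, which meets the rule used here for treating the numbers as pairs (each over 0.1). The calls reported are nevertheless from the fit without the block, as the design was set, and the blocked value is given where it changes a call. The labels do not say that a number marks a shared preparation. As replicate 3 was the shallowest library of both groups, like depth and a shared preparation cannot be told apart there. No 2 libraries of a group agreed within counting noise (chi-square over its degrees of freedom was 33.3 to 178).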

Additional observations from a re-analysis of the deposited data

Results flagged for a closer look

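The row of the mCherry reporter, which no comparison uses, had 243 counts summed over the intestinal libraries, against 1 count over the non-intestinal libraries. By library this was 147, 92 and 4 counts in intestinal replicates 1, 2 and 3, against 1, 0 and 0 counts in the non-intestinal replicates. The share of a library's counts was higher in each intestinal library than in any non-intestinal one. Groups of 3 libraries were not tested for single outlying values.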

How the results depend on the processing

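Over 14 alternatives, pept-1 and aat-4 were called in each, aat-7 in 12 of the 13 that tested it and aat-6 in 5 of 13. Among all genes the number called lower was 1337 under library totals alone and 1379 by DESeq2, against 703, and the median log2 fold change of tested genes was −0.84 under library totals alone and −0.28 under RLE scaling, against −0.34. Of the called genes 63.9% were higher under TMM and 44.3% under library totals alone. With 1 library left out, 788 to 1393 genes were called higher and 198 to 647 lower, with 788 and 198 both without intestinal replicate 1. The lower count was 380 when non-intestinal replicate 1 was omitted and 350 when its replicate 2 was. In these fits 2 to 4 of the transporters were called higher (2 without intestinal replicate 1, and 2 when non-intestinal replicate 2 was omitted), and 2 to 4 genes of the lists by role were called higher (2 without intestinal replicate 2) and 0 to 1 lower. A single list gene was called lower under library totals alone, by DESeq2 and with the replicate block, and 2 without a filter. With the replicate block aat-6 was lost, snf-3 and app-1 were gained, and no other call changed among the tested transporters, the genes of the lists by role and elt-2. Signs of uncalled genes turned as follows, as log2 fold changes. Under library totals alone aat-1 had −0.32, snf-1 −0.12 and tpp-2 −0.37. With the replicate block aat-9 had 0.067. With 1 library left out, aat-1 ranged from −0.18 to 0.59 (negative without intestinal replicate 3), aat-9 from −0.46 to 0.36 (positive without non-intestinal replicate 1, 0.24, or 2), snf-6 from −0.075 to 3.76 (negative without intestinal replicate 3), slc-36.4 from −0.33 to 1.68 (negative without intestinal replicate 2) and pam-1 from −0.23 to 0.31 (positive without non-intestinal replicate 2 or 3). Of 22 uncalled genes among these, 15 had a fold that moved over 1.5 times when 1 library was left out. The causes were not tested. The shallow intestinal replicate 3 had 0 counts of aat-3, aat-5 and atgp-2, which limits what can be said of them. They were not called in the fits that left out either shallow library. aat-8 had at most 2 counts in any library, the deep ones included.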
